A study of Mus musculus with 8 samples.

Results

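Contacts of 5 viewpoints were compared between the mouse neuroblastoma line N2a and mouse embryonic stem (ES) cells, in 2 libraries of each, which are 4 of the 8 libraries of the series. The libraries were taken by their labels, so no measured value chose them. ES cells were grown on gelatin with serum and leukemia inhibitory factor, a cytokine that keeps them undifferentiated. N2a was grown in DMEM with fetal bovine serum and is a single tumour line, so what is measured here describes that line rather than neuroblastoma or neural tissue in general. The labels name no strain, genotype or passage for either, and do not say whether the libraries of a cell type came from separate cultures, so each p measures only the spread between these libraries, which may be technical. The assay reads ligated genomic DNA and no transcripts, so the cell types could not be checked against marker genes. The remaining 4 libraries, 2 of neuronal stem cells of the embryonic cortex (NSC) and 2 of cortical neurons, entered the same fits and served to ask whether N2a also differed from other neural cells.

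In this kind of assay chromatin is crosslinked, cut with a restriction enzyme and ligated, and the fragments joined to a chosen viewpoint are sequenced, so that more reads on a fragment mean more frequent proximity to the viewpoint. Contacts of a promoter normally fall off with distance and are held largely within a chromatin domain, where enhancers that act on the promoter also lie. Pax6 encodes a transcription factor of eye, brain and pancreas development and starts from several promoters, of which P0 and P1 were viewpoints. Paupar, the remaining viewpoint of that locus, is a long noncoding RNA gene transcribed next to Pax6. Sox2 encodes a transcription factor needed both by pluripotent cells and by neural stem cells, and in ES cells its expression is known to depend on a distal control region downstream of the gene. Pou3f3 (also called Brn1) encodes a POU-domain transcription factor of the developing brain.

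In coordinates of mm10, the viewpoints were centred at 105661400 (Paupar), 105668438 (Pax6P0) and 105675114 (Pax6P1) on chromosome 2, at 34648817 on chromosome 3 (Sox2) and at 42697534 on chromosome 1 (Pou3f3). Pax6P0 and Sox2 sit on annotated promoters whose sequence was at hand, and another promoter is shown because it belongs to 4930527A07Rik, the gene whose contacts were lower in N2a from all 3 viewpoints of the Pax6 locus. Each window runs from 250 bases before to 50 bases after the RefSeq start, on the plus strand of GRCm38.p6 (mm10), and GATC is in capitals. GATC reads the same on both strands, and all 952 boundaries of listed fragments that fell inside RefSeq promoters lay at a GATC. Of 32851 RefSeq promoters of 300 bases, 48.0% hold it.
Pax6 P0, chr2:105668646-105668945: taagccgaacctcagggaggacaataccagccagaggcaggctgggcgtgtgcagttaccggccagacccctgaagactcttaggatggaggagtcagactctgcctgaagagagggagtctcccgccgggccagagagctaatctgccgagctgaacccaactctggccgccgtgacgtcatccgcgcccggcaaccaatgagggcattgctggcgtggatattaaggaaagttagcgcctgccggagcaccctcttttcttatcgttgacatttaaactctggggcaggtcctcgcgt
Sox2, chr3:34649745-34650044: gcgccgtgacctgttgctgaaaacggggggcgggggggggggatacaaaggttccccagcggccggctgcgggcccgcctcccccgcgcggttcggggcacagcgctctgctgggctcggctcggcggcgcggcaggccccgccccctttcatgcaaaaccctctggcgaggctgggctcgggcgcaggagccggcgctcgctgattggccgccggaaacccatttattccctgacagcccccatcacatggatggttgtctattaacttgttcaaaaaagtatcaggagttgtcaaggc
4930527A07Rik, chr2:105476193-105476492: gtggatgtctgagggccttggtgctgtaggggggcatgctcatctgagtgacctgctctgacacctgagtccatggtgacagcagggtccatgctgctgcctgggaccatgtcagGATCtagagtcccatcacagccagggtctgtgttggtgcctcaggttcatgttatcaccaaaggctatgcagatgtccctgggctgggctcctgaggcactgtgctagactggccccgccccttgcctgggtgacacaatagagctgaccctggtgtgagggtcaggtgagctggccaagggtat
The Pax6 and Sox2 windows hold no GATC and lie inside the stretches without listed fragments that mark their viewpoints. The 4930527A07Rik window holds 1 GATC, and the fragments overlapping it had 13 and 11 reads from Pax6P1 in the ES libraries and 0 and 3 in the N2a libraries, too few for a comparison of the promoter alone.

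Summed over the 5 viewpoints, the libraries held 574791 (ES 1), 247067 (ES 2), 281950 (N2a 1) and 367615 (N2a 2) listed reads. Between 44.8% and 55.8% of the reads of a file lay on the viewpoint's own chromosome in N2a 1, against 52.4% to 75.1% in the other 3 libraries. Values below are shares of cis reads: the reads of a window, distance band or gene as a percentage of all reads on the viewpoint's chromosome more than 5 kb from its centre, of which a file held 22028 to 75244. Upstream means lower coordinates and downstream higher ones. Each log2 change is N2a minus ES from edgeR's quasi-likelihood test, with its standard error (SE), and adjusted p means Benjamini-Hochberg adjustment with a threshold of 0.05. Tested windows of 5 kb correlated between replicates with a Spearman rho of 0.687 to 0.765 for ES and 0.526 to 0.653 for N2a. Between ES and N2a libraries the mean rho was 0.536 to 0.639. From Sox2 the N2a replicates correlated less with each other (0.526) than with the ES libraries (0.571 on average). These are correlations across windows, which are not independent.

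N2a placed a smaller share of its cis reads in most windows within 1 Mb of Paupar, both Pax6 promoters and Sox2, but not of Pou3f3. The median log2 change over tested windows was -0.68 for Paupar, -0.64 for Pax6P0, -0.57 for Pax6P1 and -0.63 for Sox2, against 0.05 for Pou3f3. With TMM scaling, which takes the typical window as unchanged, the same medians were -0.08, -0.22, -0.18, 0.05 and -0.03. A change is therefore also given relative to the median window of its viewpoint where this matters. Its size depended on the libraries: without N2a 1 the medians were -0.83, -0.86, -0.78, -0.66 and -0.03 in the order above, and without N2a 2 they were -1.21, -1.22, -1.37, -1.26 and -0.45. Without ES 1 they were -0.59, -0.61, -0.56, -0.57 and 0.06, and without ES 2 they were -0.59, -0.36, -0.47, -0.61 and 0.08.

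Of 65 rows, 12 distance bands and the sum within 1 Mb for each viewpoint, 26 passed the test between N2a and ES, which is 40% of those tested, 5 higher (7.69%) and 21 lower (32.3%) in N2a. With TMM scaling 26 were higher and 9 lower, and with the reads within 1 Mb as the library size the split was 15 against 15. Of the 20 named bands, at most 4 a viewpoint, 9 were called with the same sign under every alternative run for bands. Those alternatives numbered 9 and did not include DESeq2 or wider windows. The account of each locus starts from the bands so called.

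**Figure D1:**
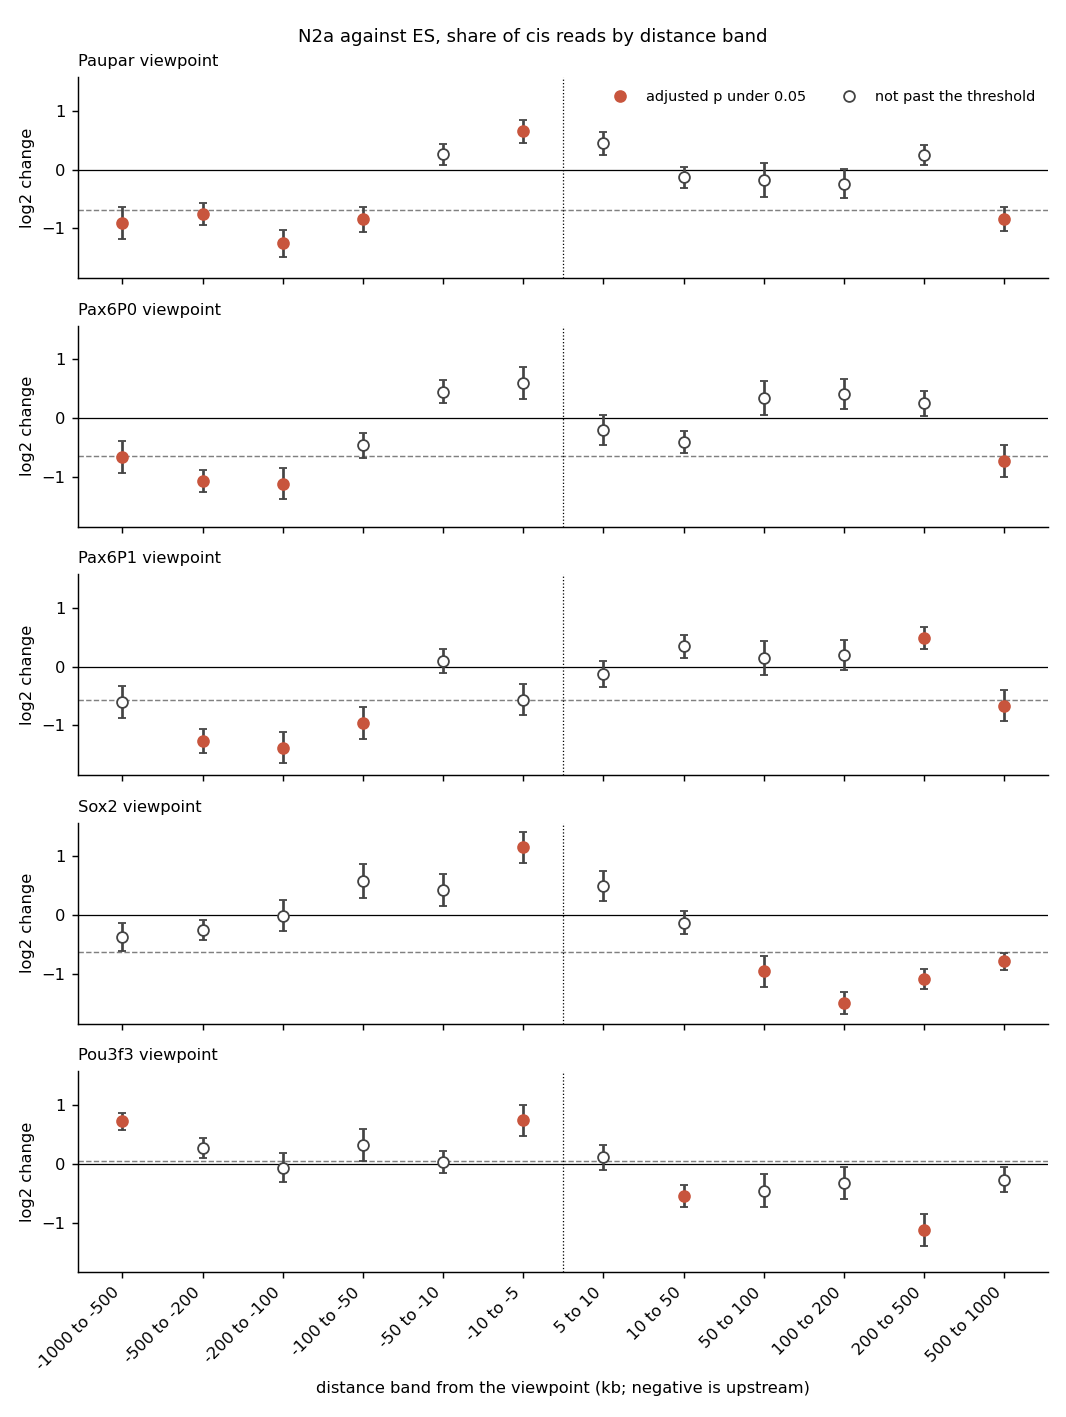
Log2 change of N2a against ES in the share of cis reads, by distance band (kb from the viewpoint, negative is upstream), 1 panel per viewpoint. Points are edgeR estimates with bars of 1 SE, filled where the adjusted p is under 0.05, and the dashed line is the median of the viewpoint's 5 kb windows. Called bands with a log2 change under -1 lay upstream of the Pax6 locus, downstream of Sox2 and 200 to 500 kb downstream of Pou3f3, and the band 500 to 1000 kb upstream of Pou3f3 was higher in N2a.

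At Sox2, N2a had fewer contacts than ES downstream of the gene. The band 100 to 200 kb downstream held 10.5% and 9.97% of cis reads in the ES libraries and 3.88% and 3.37% in the N2a libraries. Both N2a values were thus well under both ES values, 2.82 times lower by the means (log2 change -1.5, SE 0.19, adjusted p = 1.3e-07, and -0.87 relative to the median window). NSC and neuron libraries averaged 4.06% and 4.02% there, and N2a did not differ from them beyond error (log2 difference -0.16, 95% interval -0.49 to 0.17, adjusted p = 0.495). As a share of cis reads, N2a thus lay with the neural cells and apart from ES in this band. Within 1 Mb of Sox2 N2a held 50.3% of cis reads, against 74.2% in NSC and 74.0% in neurons. How far the likeness depends on this denominator was not tested, since no alternative was run against NSC and neurons.

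The region 100 to 120 kb downstream of Sox2 (chr3:34748817-34768816), where the distal control region of ES cells is known to lie, held 3.82% and 4.08% of cis reads in ES and 0.546% and 1.05% in N2a. The ES mean was 4.97 times the N2a mean (log2 change -2.31, SE 0.42, adjusted p = 2.1e-05 by edgeR over the region and the 366 Sox2 windows). The change was -1.68 relative to the median Sox2 window and stayed between -2.85 and -1.47 over 12 alternatives, with a largest unadjusted p of 0.00287. Of only the reads 50 to 1000 kb from Sox2, the region took 6.98% and 7.23% in ES and 1.74% and 2.97% in N2a. This measure was chosen after seeing the data, and its denominator holds the region itself and the other downstream bands that fell. On that measure NSC libraries took 1.31% and 1.33% and neuron libraries 0.909% and 1.56%, all under both N2a libraries. As a share of cis reads N2a could not be told from NSC and neurons here, with a log2 difference of 0.05 (SE 0.35). Its 95% interval of -0.64 to 0.74 was wide enough to hold a change of over 1.5 times either way. The likeness to neural cells was thus seen in the share of cis reads and not in the share of reads 50 to 1000 kb away. The second share was not tested.

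Windows of 5 kb located the change more closely. Of 366 windows tested from Sox2, 24 passed (6.56%), 1 higher (0.273%) and 23 lower (6.28%) in N2a, and 72 had an unadjusted p under 0.05. This split depends on the scaling, since with TMM 7 were higher and 1 lower, and on the libraries, since 1 window was called without ES 1, 0 without ES 2, 1 without N2a 1 and 38 without N2a 2. A window is named by its edge at the lower coordinate, in kb from the viewpoint. Windows that passed gathered in 2 stretches: 8 of the 9 windows tested 100 to 145 kb downstream and 7 of the 13 windows 430 to 495 kb downstream. The limits of both were drawn after the values were seen, and from 145 to 200 kb 2 of 11 windows passed. The window with the smallest p in the first stretch, 115 kb downstream (chr3:34763817-34768816), held 0.827% and 0.631% in ES and 0.0542% and 0.0991% in N2a, and its log2 change was -3.23 (SE 0.77, adjusted p = 0.00873). Its neighbour at 120 kb held 0.918% and 0.726% in ES against 0.172% and 0.0821% in N2a. The 5 kb at 105 and at 125 kb had log2 changes of -2.27 and -2.61. None of the 8 windows passed in N2a against NSC and neurons.

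The farther stretch holds no gene of the list used for this locus. Summed over 430 to 495 kb, ES libraries had 4.34% and 4.37% of cis reads and N2a libraries 1.03% and 1.31%, while the means were 4.51% in NSC and 4.81% in neurons. Here N2a lay apart from all 3 other cell types, and because the stretch was outlined after its values were seen, the sums are a description with no test. Of its 7 windows that passed against ES, 6 also passed against NSC and neurons, beside 12 of all 24 Sox2 windows that passed against ES. The same N2a libraries enter both comparisons, so passing in the second is not independent support. At 490 kb, the window with the smallest p, the shares were 0.330% and 0.604% in ES and 0.0497% and 0.0793% in N2a (log2 change -2.83, adjusted p = 0.0146). Farther out still, the window at 925 kb had 0.140% and 0.320% in ES against 0.0135% and 0.0397% in N2a (log2 change -3.03), with 3 reads behind the lowest value, and it too passed against NSC and neurons (adjusted p = 7.97e-06).

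**Figure D2:**
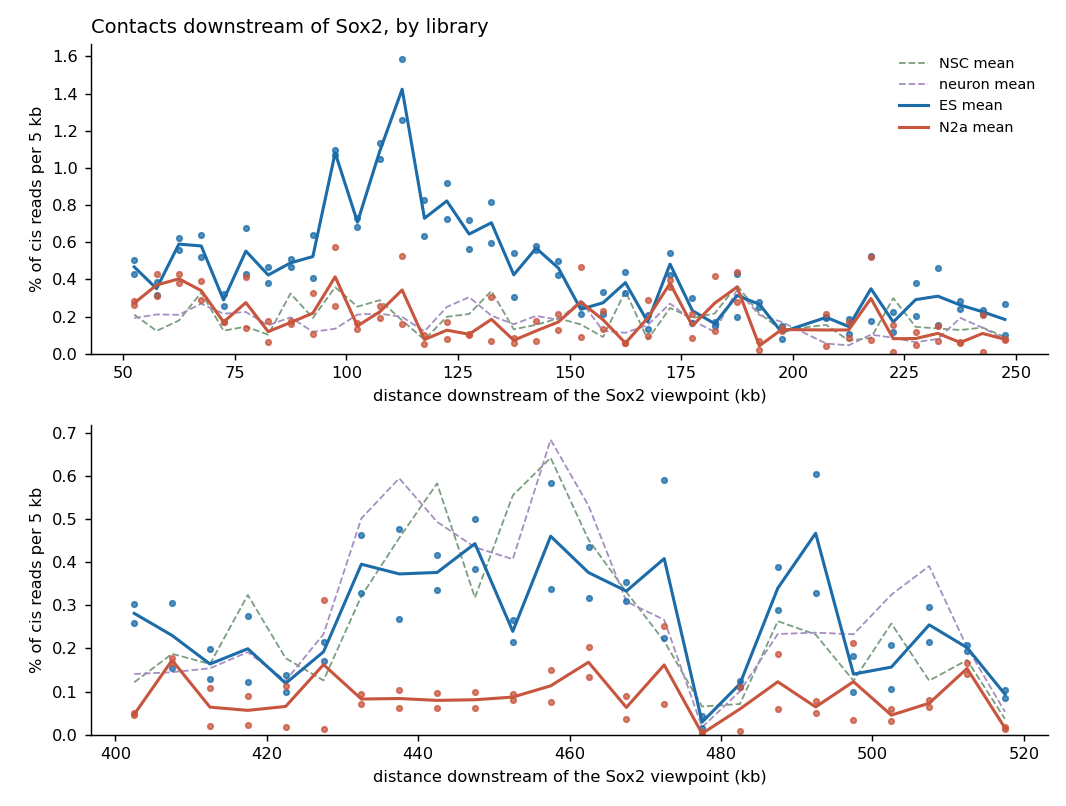
Share of cis reads per 5 kb window downstream of the Sox2 viewpoint (kb), 50 to 250 kb in the upper panel and 400 to 520 kb in the lower. Points are libraries of ES and N2a, solid lines their means and dashed lines the NSC and neuron means. From 100 to 145 kb the N2a line runs with the neural lines under the ES line, whereas from 430 to 495 kb it runs under all 3 others.

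The bands around those stretches carried the same split. At 200 to 500 kb downstream ES libraries held 13.3% and 13.0% and N2a libraries 5.23% and 7.15% (log2 change -1.09, SE 0.17, adjusted p = 5.07e-06), and N2a was also under NSC and neurons, at 11.0% and 10.5% (adjusted p = 6e-05). At 500 to 1000 kb downstream the ES shares were 12.0% and 13.2% and the N2a shares 7.21% and 7.44% (log2 change -0.78), but this change was -0.07 with TMM and no longer passed. Upstream, the band 200 to 500 kb did not pass against ES, with 5.57% and 5.69% in ES and 4.88% and 4.58% in N2a, while NSC and neurons averaged 13.3% and 14.2%. In that band N2a differed from the neural cells (log2 difference -1.54, adjusted p = 1.41e-10). As a share of cis reads the difference of N2a from ES was small (-0.25, 95% interval -0.59 to 0.09). The median Sox2 window changed by -0.63, so relative to it the band lay higher in N2a than in ES, which was not tested. Within 1 Mb in all, N2a held 47.5% and 53.2% of cis reads against 68.1% and 69.5% in ES, a log2 change of -0.45 that turned to 0.25 with TMM.

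Close to Sox2 the sign turned. The window 5 to 10 kb upstream held 2.11% and 2.03% in ES and 3.92% and 5.29% in N2a (log2 change 1.15, SE 0.33, adjusted p = 0.021), and it was the only Sox2 window that passed as higher. It was not called when any 1 of the 4 libraries was left out. It lies inside Sox2ot, the noncoding RNA gene in whose intron Sox2 is nested. Over Sox2ot as a whole, reads more than 5 kb from the viewpoint took 12.4% and 11.6% in ES and 16.5% and 18.4% in N2a (log2 change 0.54, SE 0.12, adjusted p = 0.0095). Both N2a libraries were above both ES libraries, but the call did not survive leaving out either ES library (largest adjusted p = 0.122). Fxr1, which encodes an RNA-binding protein of the fragile X family and lies upstream, held 0.516% and 0.539% in ES and 0.0993% and 0.212% in N2a. Its log2 change of -1.74 (SE 0.54, adjusted p = 0.0462) was lost in 5 of 9 alternatives, with TMM and with the reads within 1 Mb as library size among them, and without ES 1, ES 2 or N2a 1. Against NSC and neurons, at 0.684% and 0.785%, Fxr1 was also lower in N2a (log2 difference -2.22, adjusted p = 0.00598). Of the 5 listed genes tested from Sox2, the other 3 (Dnajc19, Ttc14 and Ccdc39) did not pass.

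At the Pax6 locus the change lay upstream of the gene. Of the 12 bands from 50 to 1000 kb upstream of Paupar, Pax6P0 and Pax6P1, 10 passed as lower in N2a, and 5 of these were called under every alternative run. Over all 39 rows of the locus 41% passed, 2 higher (5.13%) and 14 lower (35.9%).

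At 100 to 200 kb upstream, Paupar had 4.38% and 4.43% of cis reads in ES and 2.00% and 1.69% in N2a (log2 change -1.26, SE 0.23, adjusted p = 2.05e-05). From Pax6P0 the same band held 4.08% and 3.91% in ES against 1.74% and 1.95% in N2a (log2 change -1.12). From Pax6P1 it held 4.05% and 3.81% against 1.42% and 1.61% (log2 change -1.38). All 6 N2a values lay under all 6 ES values. Over the 39 rows of the locus, both N2a libraries lay under both ES libraries in 23. In the band 100 to 200 kb upstream N2a was lower than NSC and neurons too, with log2 differences of -1.14, -1.23 and -1.21 and a largest adjusted p of 6.13e-05. The 3 viewpoints share their cells and partly their fragments, so they are not independent measurements of the region.

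At 200 to 500 kb upstream, Pax6P1 held 6.36% and 6.61% in ES and 2.32% and 3.04% in N2a (log2 change -1.27, SE 0.20, adjusted p = 5.07e-06), with NSC and neurons at 6.23% and 6.39%. Pax6P0 held 7.51% and 7.12% against 3.64% and 3.34% (log2 change -1.07, adjusted p = 2.05e-05). The median windows changed by -0.57 from Pax6P1 and -0.64 from Pax6P0, so both changes are smaller relative to them. These 2 bands were called under every alternative run. The Paupar band, at 5.75% and 6.82% against 3.56% and 3.90%, had a log2 change of -0.75, close to its median window, and was not called with TMM or without ES 2.

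Downstream of Pax6 the bands did not move one way. From Pax6P1 the band 200 to 500 kb downstream rose, with 6.52% and 6.07% in ES and 7.93% and 9.66% in N2a (log2 change 0.48, SE 0.19, adjusted p = 0.0419), and it was not called without ES 1, ES 2 or N2a 2. NSC and neurons stood at 10.6% and 11.1% there, and the log2 difference of N2a from them was -0.30 (95% interval -0.62 to 0.03). The band 500 to 1000 kb downstream fell from all 3 viewpoints, by log2 changes of -0.84 (Paupar), -0.72 (Pax6P0) and -0.66 (Pax6P1), which were -0.16, -0.09 and -0.09 relative to the median windows. From Paupar that band held 3.80% and 4.35% in ES and 1.95% and 2.60% in N2a, and was not called with TMM, without ES 2 or without N2a 1. N2a was also under NSC and neurons in it, from Paupar by a log2 difference of -1.15 (adjusted p = 5.85e-06).

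Upstream of Pax6, the listed gene Rcn1, in the band 200 to 500 kb, did not pass. Its log2 changes were -0.17 (Paupar), 0.02 (Pax6P0) and -0.73 (Pax6P1). The upstream gene that passed, 4930527A07Rik (chr2:105476443-105549643), lies in the band 100 to 200 kb upstream of each viewpoint. It is an annotated long noncoding RNA gene of unassigned function whose right end overlaps Pax6os1, so fragments in the overlap count for both. From Pax6P1 it held 3.21% and 3.12% of cis reads in ES and 0.950% and 1.14% in N2a. The ES mean was 3.03 times the N2a mean (log2 change -1.60, SE 0.26, adjusted p = 0.00115, and -1.03 relative to the median window). From Paupar the shares were 3.40% and 3.14% in ES and 1.60% and 1.26% in N2a (log2 change -1.20, SE 0.19, adjusted p = 0.00115). From Pax6P0 they were 3.30% and 3.12% against 1.21% and 1.66% (log2 change -1.16, adjusted p = 0.00347), and this call alone of the 3 was lost in 1 alternative, without ES 1 (adjusted p = 0.0604). The median windows changed by -0.68 from Paupar and -0.64 from Pax6P0, so there too the change over the gene is smaller relative to them. N2a was lower than NSC and neurons from each viewpoint as well (largest adjusted p = 0.000696), so ES, NSC and neurons lay together and N2a apart. Within the gene, 15 of 15 windows tested from Paupar, 15 of 16 from Pax6P0 and 14 of 14 from Pax6P1 had negative log2 changes, beside 250 of 356, 210 of 321 and 210 of 320 over all windows of those viewpoints. Under the median window lay 12, 12 and 14 of them, and 1, 0 and 0 were called. These windows hold the same reads by which the gene passed, so they describe its spread and are no further support.

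**Figure D3:**
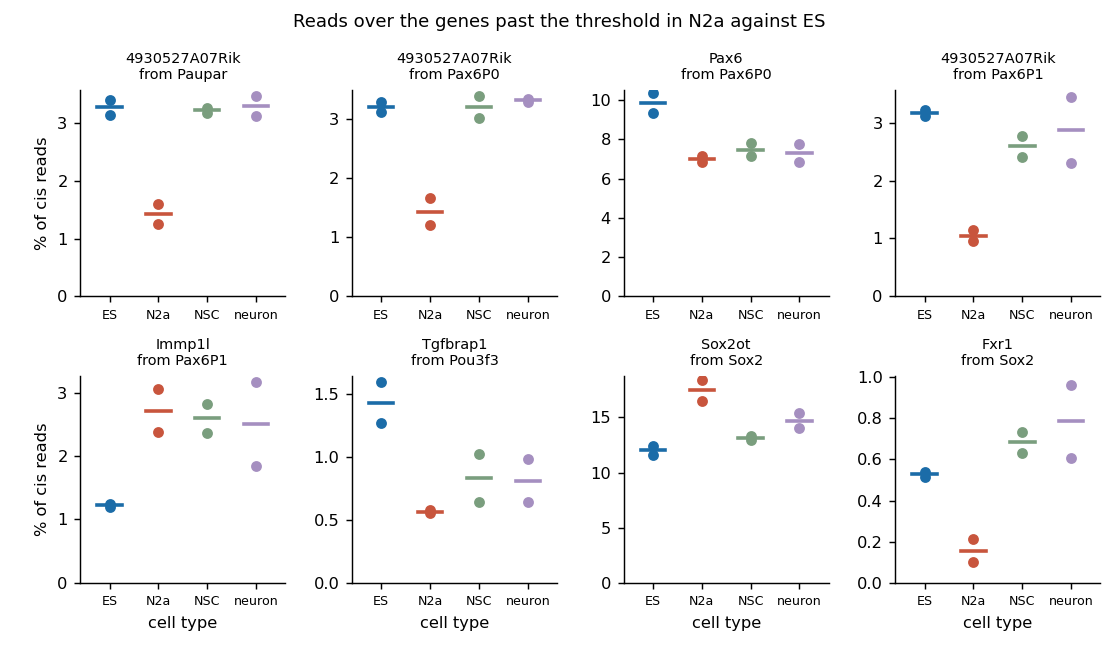
Share of cis reads over each gene and viewpoint that passed in N2a against ES, by cell type. Points are libraries and bars group means, with an axis from 0 in each panel. Over 4930527A07Rik the 2 N2a libraries lie under all other libraries from all 3 viewpoints, and over Immp1l they lie among the NSC and neuron libraries.

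Of 57 tests of a listed gene from a viewpoint, 8 passed, or 14%, 2 higher (3.51%) and 6 lower (10.5%) in N2a. With TMM 10 were higher and 5 lower. Of the 44 tests at the Pax6 locus 5 passed. Immp1l, which encodes a subunit of the mitochondrial inner membrane peptidase and lies downstream beyond Elp4, was the single gene of the locus that rose. From Pax6P1 it held 1.20% and 1.24% in ES and 2.38% and 3.06% in N2a (log2 change 1.16, SE 0.29, adjusted p = 0.019). N2a did not differ there from NSC and neurons beyond error, at 2.60% and 2.51% (95% interval of the log2 difference -0.39 to 0.58). The call was lost without ES 1 and without ES 2 (largest adjusted p = 0.125), and from Paupar and Pax6P0 the log2 changes of 0.29 and 0.49 did not pass.

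Over the Pax6 gene itself, seen from Pax6P0, the ES shares were 9.36% and 10.4% and the N2a shares 6.84% and 7.15% (log2 change -0.49, SE 0.13, adjusted p = 0.0228). This was smaller than the shift of the median window, so relative to it the change was 0.14, and it did not pass with TMM (log2 change -0.07), with the library size within 1 Mb, with the fewest-read counting described under processing, or without ES 1, ES 2 or N2a 1. From Paupar and Pax6P1 the Pax6 gene had log2 changes of -0.06 and -0.05 and did not pass. Elp4, whose introns hold known Pax6 enhancers, did not pass from any of the 3 viewpoints, with log2 changes of -0.20 (Paupar), 0.34 (Pax6P0) and 0.22 (Pax6P1). It was called as higher in N2a from Pax6P0 with TMM (0.77, adjusted p = 0.00206), with the library size within 1 Mb (0.51) and with fewest-read counting (0.46), and from Pax6P1 with TMM (0.60, adjusted p = 0.0337), while from Paupar its sign turned with TMM (0.40, not called). Pax6os1, a noncoding RNA gene running opposite to Pax6, had 0.15, 0.20 and -0.36, the last with an adjusted p of 0.0528. With TMM it was called as higher from Paupar (0.75) and Pax6P0 (0.62), and from Pax6P0 also with the library size within 1 Mb (0.37), while from Pax6P1 it was called as lower with ES and N2a libraries alone and with the replicate block (-0.36 in both). The Paupar gene was measured only from the 2 Pax6 promoters and had log2 changes of 0.53 (Pax6P0) and -0.98 (Pax6P1), neither past the threshold, though the second was called without N2a 2 (-2.22). Wt1, which encodes a zinc finger factor needed in kidney development, held 0.910% and 1.00% in ES and 0.377% and 0.358% in N2a from Paupar. Its log2 change of -1.38 missed the threshold (adjusted p = 0.0528), as did those of -1.69 from Pax6P0 and -1.39 from Pax6P1, though it was called from Paupar with ES and N2a libraries alone (-1.38) and from Pax6P0 without N2a 2 (-3.03). Dcdc5, a doublecortin-domain gene farther downstream, did not pass against ES from any viewpoint, and was lower than in NSC and neurons from all 3, with log2 differences of -0.91, -1.03 and -1.01 and a largest adjusted p of 0.00221.

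Contacts among the 3 viewpoints of the locus were tested as 6 ordered pairs, of which 1 passed (16.7%). From Paupar, the 4 kb around the P0 promoter held 2.77% and 2.57% in ES and 3.55% and 3.77% in N2a (log2 change 0.46, SE 0.16, adjusted p = 0.0354 over the 6 pairs). The reverse pair, from Pax6P0 to Paupar, held 2.49% and 2.58% against 3.65% and 4.07% (log2 change 0.60) and missed the threshold with an adjusted p of 0.0728. It was called in 5 of 10 alternatives, with TMM (log2 change 1.03), DESeq2 size factors (1.02), the library size within 1 Mb (0.77), ES and N2a libraries alone and the replicate block (0.60 in both). Pax6P1 had log2 changes of -0.76 towards Paupar and -0.67 towards Pax6P0, both with that same adjusted p, and the second was called with the replicate block (-0.71) and without N2a 1 (-1.05). The Paupar to Pax6P0 call was lost without ES 1, without ES 2, without N2a 2 and with the fewest-read counting.

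At window resolution Paupar had 4 of 356 windows past the threshold (1.12%), 1 higher (0.281%) and 3 lower (0.843%), and Pax6P0 and Pax6P1 had none of 321 and 320 (0% each) by edgeR, with 46 and 54 windows at an unadjusted p under 0.05 and 17 and 8 called by DESeq2's Wald test with its own size factors. The window 145 kb upstream of Paupar (chr2:105516400-105521399), inside 4930527A07Rik, held 0.426% and 0.400% in ES and 0.0864% and 0.0534% in N2a (log2 change -2.57, SE 0.56, adjusted p = 0.00177), and also passed against NSC and neurons (adjusted p = 0.0029). The windows 200 and 55 kb upstream were lower by log2 changes of -2.40 and -1.20, the second inside Pax6os1. The window 5 to 10 kb upstream of Paupar rose, with 3.66% and 3.52% in ES and 4.82% and 6.48% in N2a (log2 change 0.66, SE 0.14, adjusted p = 0.00177). None of the 4 was called without ES 1, without ES 2 or without N2a 2. The smallest p from Pax6P0 was that of the window 540 kb upstream in Wt1, with 0.281% and 0.340% in ES and 0.0157% and 0.00968% in N2a, each N2a value resting on 4 reads (adjusted p = 0.0541). Next came the window 15 kb downstream, inside Pax6, with 2.05% and 1.55% in ES and 0.790% and 0.557% in N2a (adjusted p = 0.09). From Pax6P1 it was the window 155 kb upstream, again inside 4930527A07Rik, with 0.428% and 0.218% in ES and 0.0449% and 0.0495% in N2a (adjusted p = 0.0666). A window 555 kb downstream of Pax6P1, in Dcdc5, had 38 and 25 reads in ES and 0 in both N2a libraries, at least 10.1-fold lower with a floor of 3 reads per library (adjusted p = 0.0836).

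**Figure D4:**
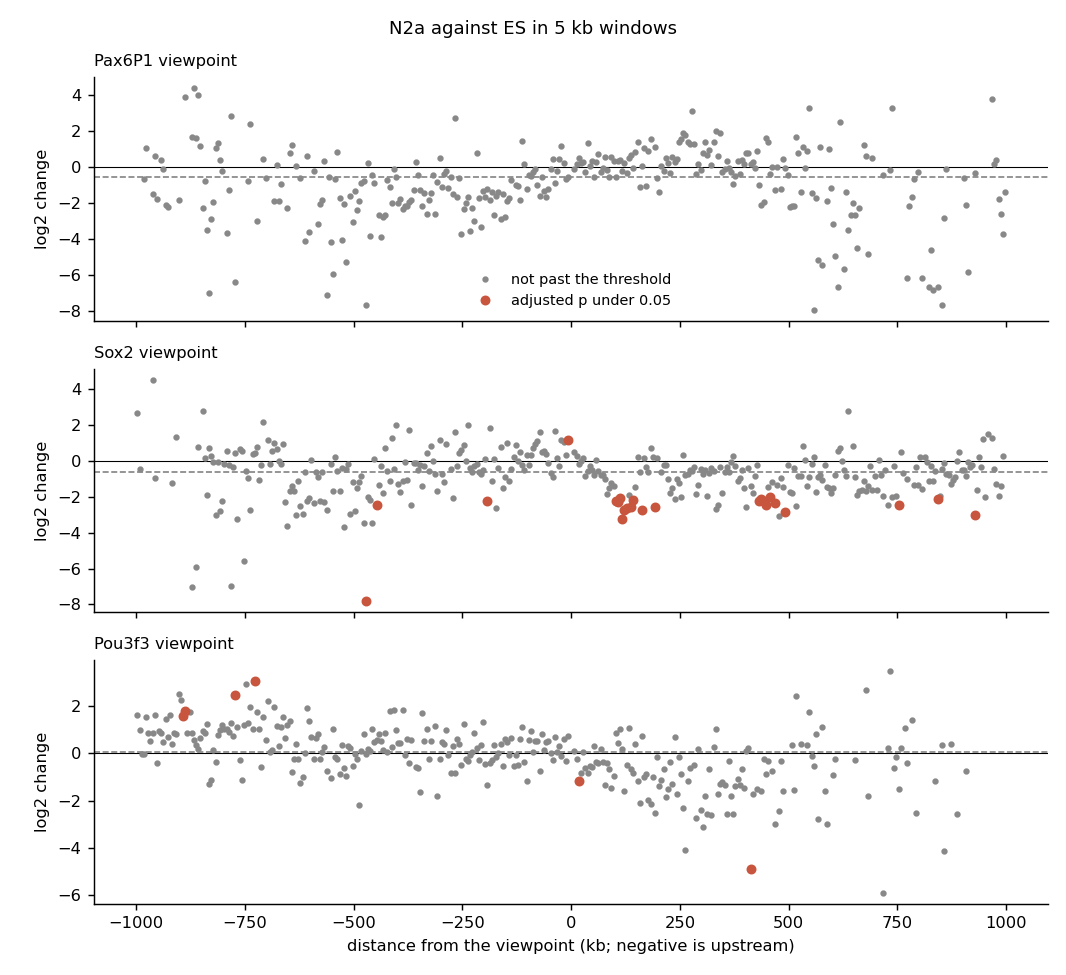
Log2 change of N2a against ES in 5 kb windows within 1 Mb, by distance from the viewpoint (kb), for Pax6P1, Sox2 and Pou3f3. Each point is 1 tested window, filled red where the adjusted p is under 0.05, and the dashed line is the median of the panel. Red points lie mainly downstream of Sox2 and far upstream of Pou3f3, and none is called from Pax6P1.

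At Pou3f3, N2a had more contacts than ES far upstream and fewer downstream. The band 500 to 1000 kb upstream held 8.08% and 9.05% of cis reads in ES and 13.1% and 15.1% in N2a (log2 change 0.72, SE 0.15, adjusted p = 0.000114). Both N2a libraries were above both ES libraries under a median window change near 0. NSC and neurons averaged 14.5% and 15.6%, and N2a did not differ from them beyond error (95% interval of the log2 difference -0.34 to 0.16). On the other side, the band 200 to 500 kb downstream held 5.08% and 6.03% in ES and 2.16% and 2.90% in N2a (log2 change -1.13, SE 0.27, adjusted p = 0.000851), again close to NSC and neurons at 2.81% and 2.94% (interval -0.64 to 0.28). Both bands were called under every alternative run. Of the 13 Pou3f3 rows 4 passed, and the other 2, a rise 5 to 10 kb upstream and a fall 10 to 50 kb downstream, were lost when either ES library was left out.

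Of 323 windows tested from Pou3f3, 6 passed (1.86%), 4 higher (1.24%) and 2 lower (0.619%). The 4 that rose all lay between 730 and 895 kb upstream. The window 890 kb upstream (chr1:41807534-41812533), in the predicted gene Gm29260, held 0.170% and 0.225% in ES and 0.692% and 0.675% in N2a (log2 change 1.79, SE 0.38, adjusted p = 0.000733). The window next to it, at 895 kb, rose by a log2 change of 1.55, and those at 775 and 730 kb by 2.47 and 3.02. None of the 4 passed against NSC and neurons. Downstream, the window at 15 kb, which overlaps Pantr2, held 1.93% and 1.52% in ES and 0.754% and 0.794% in N2a (log2 change -1.16, adjusted p = 0.00991). It was the only one of the 6 that also passed against NSC and neurons (adjusted p = 0.00204). At 410 kb the N2a libraries had 2 reads each, against 60 and 61 in ES (log2 change -4.88, adjusted p = 0.04). No window of the 6 was called when either ES library was left out.

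Of the 8 listed genes tested from Pou3f3 1 passed. Tgfbrap1, whose product binds TGF-beta receptors and takes part in endosome tethering, held 1.26% and 1.59% in ES and 0.555% and 0.573% in N2a (log2 change -1.34, SE 0.41, adjusted p = 0.0462). The call was lost with the fewest-read counting and without ES 1, ES 2 or N2a 1. Its neighbours on that side had negative changes that did not pass: Mrps9, a mitochondrial ribosomal protein gene, had -1.07, Gpr45, an orphan receptor gene, -1.15, and Fhl2, a LIM-domain gene, -1.22, with adjusted p-values of 0.0709, 0.193 and 0.0828. Pantr1 and Pantr2, noncoding genes flanking Pou3f3, had log2 changes of 0.25 and -0.46 and did not pass, though Pantr1 was called with fewest-read counting (0.49) and Pantr2 with the library size within 1 Mb (-0.50).

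The side of the viewpoint on which reads lay set these changes against a denominator other than the cis total. Of the reads 50 to 1000 kb away, a measure chosen after seeing the data and given with no test, the upstream share from Pax6P1 was 54.1% and 55.8% in ES and 31.9% and 35.8% in N2a. From Pax6P0 it was 58.4% and 53.6% against 45.5% and 34.6%, and from Paupar 50.5% and 54.6% against 39.8% and 38.1%. From Sox2 it went the other way, 25.5% and 25.9% in ES and 39.7% and 40.5% in N2a, and so it did from Pou3f3, with 64.5% and 64.0% against 77.6% and 79.7%. At each of the 5 viewpoints both N2a libraries lay on 1 side of both ES libraries. Such separation was common: of the 65 bands and sums, both N2a libraries lay above both ES libraries in 15 and below in 35. The NSC and neuron means lay on the same side of ES as N2a at each viewpoint, at 41.9% and 43.5% from Pax6P1, at 39.7% and 44.2% from Sox2 and at 78.4% and 79.2% from Pou3f3.

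**Figure D5:**
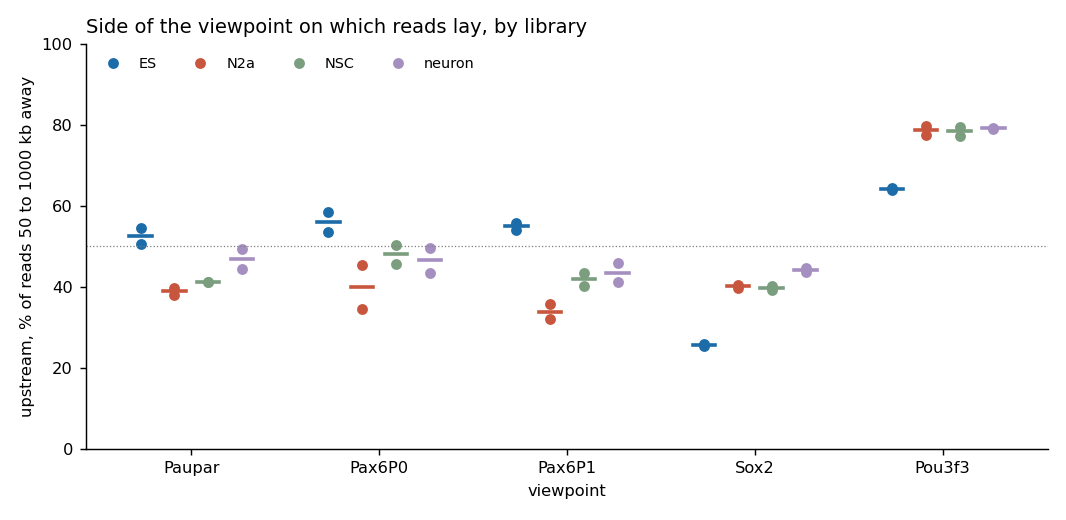
Reads upstream of the viewpoint as a percentage of the reads 50 to 1000 kb away on both sides, by library and viewpoint. Points are libraries, bars group means, and the dotted line marks 50%. N2a lay under ES at Paupar, Pax6P0 and Pax6P1 and above ES at Sox2 and Pou3f3.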

How the data were processed

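Trim Galore, Bowtie and the build mm10 are named in the submitters' processing notes. The enzyme, any removal of duplicates and the caller of interactions are not stated there. The deposited files list restriction fragments with a count of reads, not normalized by the authors. The authors' RPMs column holds a signal that equals a power of the read count in each file, and it, the authors' z score and the deposited p-value and q-value columns were not tested. If single reads were entered in several neighbouring fragments, the listed reads would be 1.95 to 2.73 times the smallest number able to give these counts in the 4 libraries. That fewest-read counting was an alternative.

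Reads were summed by fragment midpoint in windows of 5 kb up to 1 Mb from each viewpoint (40 files, 8 libraries), leaving out 5 kb on either side, and kept by filterByExpr with a minimum count of 10. edgeR 4.0.16 (R 4.3.3, glmQLFit robust) fitted all 8 libraries with the cis total as library size and no scaling factor, and gave N2a minus ES and N2a minus the mean of NSC and neuron. Values of p were adjusted by Benjamini-Hochberg over the windows of a viewpoint, over all 65 bands and sums, over all 57 gene tests and over 6 viewpoint pairs. The common dispersion was a coefficient of variation of 55.3% to 72.8%. With 2 libraries a group the smallest two-sided permutation p is 0.333, and no permutation was run. Reads carry no molecular identifiers and are not independent molecules. The script was tested on simulated data. Of windows given a 2, 4 or 8-fold change, it called 1 of 70, 14 of 64 and 29 of 63, and of unchanged windows 2 of 1401. A window that was not called is therefore not shown to be unchanged.

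Windows were named by their adjusted p, at most 6 a direction and viewpoint, where both N2a libraries lay on 1 side of both ES libraries, or the smallest p where none passed. Bands were named up to 4 a viewpoint, genes that passed up to 5 a viewpoint, and Pax6, Paupar, Pax6os1, Elp4, Wt1, Sox2ot, Fxr1, Pantr1 and Pantr2 always. Other values were named after they were seen. The gene list held 36 names, of which Dcdc1 was not matched to RefSeq. Members and lists were chosen with earlier results of these data known. Alternatives were scaling by TMM or DESeq2 1.42.0 size factors, library size within 1 Mb, no count filter, 10 and 20 kb windows, fewest-read counting, ES and N2a libraries alone, a replicate block, leaving out each library, and DESeq2's Wald test. Bands and genes were fitted under 9 of these only, without DESeq2 size factors, DESeq2's Wald test, the wider windows or the dropped count filter. All alternatives were run for N2a minus ES only. The comparison with NSC and neurons, which the same N2a libraries enter, has no alternative.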

Additional observations from a re-analysis of the deposited data

How the results depend on the processing

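Under each of the 9 alternatives run for bands and genes, 9 distance bands, and 4930527A07Rik from Paupar and Pax6P1, were called with 1 sign. DESeq2 size factors and DESeq2's Wald test were not among these. The Sox2 distal region kept its sign in its 12 alternatives, with log2 changes of -2.85 to -1.47 (its adjusted p was not computed there). Over all named windows, bands, genes and pairs, those bands and that gene included, 526 values kept direction and call, 159 lost the call, 37 gained it and 18 turned sign. Leaving out 1 library leaves its cell type with a single one, assumed to vary like the others. Without a library in turn, windows called ranged from 0 to 3 (Paupar), 0 to 10 (Pax6P0), 0 to 4 (Pax6P1), 0 to 38 (Sox2) and 0 to 7 (Pou3f3), bands from 14 to 25, genes from 2 to 16 and viewpoint pairs from 0 to 2. Without ES 1 and without ES 2 Sox2 had 1 and 0 windows, Paupar and Pou3f3 had 0 in both, bands numbered 17 and 14, genes 2 and 3. Without N2a 2 there were 38 Sox2 windows and 16 genes, and without N2a 1 there was 1 Sox2 window. Such fits have fewer libraries, and the cause was not tested further. Pax6P0 had 10 windows without N2a 2 and 1 without N2a 1, Pax6P1 4 without N2a 2, Paupar 0 without N2a 2, and Pou3f3 2 without N2a 1.

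With TMM, windows called were 8 for Sox2 (7 higher, 1 lower, against 1 and 23) and 10 for Pou3f3 (7 and 3), genes 15 and pairs 2. For Paupar TMM gave 5 higher and 0 lower, against 1 and 3. With DESeq2 size factors Sox2 had 11 (10 higher, 1 lower), Paupar 5 higher and 0 lower, and pairs 2. With the library size within 1 Mb Sox2 had 8 (5 higher, 3 lower), Pou3f3 12 and pairs 2. With 10 kb windows Paupar had 11, Pax6P0 8 and Pax6P1 2, and with 20 kb windows 12, 9 and 11. Fewest-read counting gave 1 for Paupar, 9 for Sox2, 1 for Pou3f3 and 0 pairs. ES and N2a libraries alone gave 6 for Sox2 and 2 pairs. Without the count filter Pax6P0 had 1 and Pax6P1 3. DESeq2's Wald test called 13 (Paupar), 17 (Pax6P0), 8 (Pax6P1), 13 (Pou3f3) and 23 (Sox2, 16 higher and 7 lower). The replicate block gave 5 for Pax6P0, 1 for Pax6P1, 27 for Sox2, 32 bands, 13 genes and 3 pairs. Deviations of same-numbered libraries were nearly uncorrelated across tested windows (-0.017 to 0.048). Yet the share of reads on the viewpoint's chromosome was lower in replicate 1 than in replicate 2 for each cell type and viewpoint. From Paupar it was 62.2% and 68.0% in ES and 54.2% and 73.3% in N2a. The window correlations cannot show whether the numbers mark shared handling, which was not tested.

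Signs turned for the Paupar to Pax6P1 pair (log2 change 0.35 with TMM, 0.43 with DESeq2 size factors), the Pax6P0 to Pax6P1 pair (0.30, 0.30, 0.046 with library size within 1 Mb, 0.013 with fewest-read counting), the Pax6P1 window at 555 kb (0.20 in 20 kb windows) and the Sox2 sum within 1 Mb (0.25 with TMM, called). They also turned for Pax6 from Paupar (0.55 with TMM, adjusted p = 0.0254, 0.10 with library size within 1 Mb, and from -0.12 to 0.0074 without a library in turn, the latter without ES 1), Elp4 from Paupar (0.40 with TMM, 0.034 with fewest-read counting), Pax6 from Pax6P1 (0.35 with TMM, 0.18 with library size within 1 Mb, 0.16 with fewest-read counting, and from -0.16 to 0.057 without a library in turn, the latter without N2a 2) and Pax6os1 from Pax6P1 (0.023 with TMM). The 4 libraries had 22028 to 75244 cis reads a file, which limits what single windows can show.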
